A study of Homo sapiens with 27 samples.

Results

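The 41 genes described here act in the detection and repair of DNA damage. They were chosen by name from knowledge of their function, with earlier results of these data known. All 41 were found in each of 4 read count tables, among 19540 genes in all. They comprised 9 damage signalling kinases and adaptors (ATM, ATR, CHEK1, CHEK2, TOPBP1, RAD17, MDC1, TP53BP1 and RIF1), the 3 subunits of the MRN complex (MRE11A, RAD50 and NBN), 4 end resection factors and helicases (RBBP8, EXO1, BLM and WRN), and 5 genes of the BRCA1-PALB2-BRCA2 axis (BRCA1, BARD1, PALB2, BRCA2 and BRIP1). The others were 5 recombination paralogs (RAD51B, RAD51C, RAD51D, XRCC2 and XRCC3), 3 genes of strand exchange and annealing (RAD52, RAD54L and RAD54B), 7 genes of the Fanconi anaemia core complex (FANCA, FANCC, FANCE, FANCF, FANCG, FANCL and FANCM), its targets FANCD2 and FANCI, and finally PARP1 with the mismatch repair genes MSH6 and PMS2.

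The positions at which poly(A) tails were added were measured in 3 human prostate cancer cell lines after depletion of CPSF1, the largest subunit of the complex that recognises the AAUAAA signal and directs cleavage of nascent transcripts. LNCaP is an androgen-sensitive line, LNCaP95 is an androgen-independent line derived from it and was kept here in phenol red-free medium, and 22Rv1 is a castration-resistant line. Each line was transduced with lentiviral pGIPZ vectors carrying a control hairpin (CTRL sh) or either of 2 hairpins against CPSF1 (CPSF1 sh1 and CPSF1 sh2), and every culture, controls included, was selected with puromycin. The dose was 2 µg/mL for LNCaP and 22Rv1 and, by elimination, 1 µg/mL for LNCaP95, so that dose and line cannot be told apart in comparisons with LNCaP95. With 3 replicates per hairpin and line there were 27 libraries of poly(A)-ClickSeq, a method meant to read transcripts from their poly(A) tail. The paper describes a filter against A-rich genomic sequence for its called poly(A) sites, but names none for the region counts used here. Reads that began at A-rich stretches inside introns were therefore not set apart, and an intron read need not mark a transcript end. The cultures were mixed populations of transduced cells in which CPSF1 was lowered rather than removed, and in such bulk samples fewer cells of a type and less RNA per cell cannot be told apart.

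Double-strand breaks are sensed by the MRN complex and by the kinases ATM and ATR, resected by nucleases such as EXO1, and repaired by homologous recombination, in which BRCA1, PALB2 and BRCA2 act together. The Fanconi anaemia proteins serve the repair of crosslinks between the DNA strands, and MSH6 takes part in the recognition of mismatched bases. Many of these genes are long, and a poly(A) signal inside an intron can end a transcript before its last exon, which yields a shortened messenger RNA. Loss of the kinase CDK12 is known to increase such intronic polyadenylation in repair genes, and for that reason intron reads were compared here with 3′ UTR reads, by line and after CPSF1 knockdown.

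The libraries held between 3452413 and 12425417 reads over the 4 tables. The shallowest library was the first 22Rv1 control, which also had the highest intron share of its line in the summed reads of the 41 genes. CPSF1 itself fell in every line: its 3′ UTR level went from 153 ± 23.5 to 67.8 ± 16.0 CPM (reads of a gene scaled to a common total of its table; mean ± SD, n = 3 controls and 6 knockdown libraries) in LNCaP, from 91.8 ± 22.5 to 43.7 ± 9.64 CPM in LNCaP95 and from 160 ± 34.7 to 96.8 ± 11.2 CPM in 22Rv1. The log2 changes were -1.19, -1.06 and -0.72 (edgeR adjusted p = 7.4e-05, 0.00021 and 0.017). All 10 prostate epithelial markers were expressed in every line. Their summed 3′ UTR level was 3420 to 10488 CPM in the controls. The leukocyte markers summed to at most 2.56 CPM in any library, the endothelial markers to 4.38 CPM and the basal epithelial markers to 6.55 CPM. The 4 fibroblast markers summed to 13.1 to 21.0 CPM in LNCaP controls, 35.4 to 41.3 CPM in LNCaP95 and 5.75 to 10.7 CPM in 22Rv1. In the controls of each line 1 of these 4 had a mean above 2 CPM. The epithelial sum was lower after knockdown in LNCaP (7430 to 7492 CPM in controls and 5191 to 5656 CPM after knockdown) and LNCaP95 (9681 to 10488 CPM and 5822 to 7055 CPM), but not in 22Rv1 (3420 to 3838 CPM and 3556 to 4442 CPM). The 4 neuroendocrine markers summed to 51.4 to 58.7 CPM in LNCaP controls and 9.09 to 20.7 CPM after knockdown, and to 56.2 to 85.3 CPM and 14.8 to 28.4 CPM in LNCaP95. In 22Rv1 they summed to 119 to 180 CPM in controls and 116 to 186 CPM after knockdown. Of the defining markers, CHGA and INSM1 were at 0 in all LNCaP libraries. The part of these shifts in the results on the repair genes was not tested.

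To show what sets the annotated 3′ ends of these genes apart, or does not, the last 30 bases before the end of the gene are given for the genes on which the results below turn (build hg19, read 5′ to 3′ on the strand of the gene). Capitals mark the poly(A) signal hexamer AATAAA where it occurred.
ATR, chr3:142168077-142168106, minus strand: tattaagaAATAAActgctttcttaataca
MSH6, chr2:48037211-48037240, plus strand: tctatcccAATAAAtgtttcataatcacga
MDC1, chr6:30667584-30667613, minus strand: gtgataAATAAAtattcactctgtgcctta
BRCA1, chr17:41196312-41196341, minus strand: tgcaAATAAActtggtagcaaacacttcca
RAD50, chr5:131980284-131980313, plus strand: agtgttcaagaaaaagctgtcttcatttca

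ATR, MSH6, MDC1 and BRCA1 carried AATAAA in this stretch, and RAD50 carried neither AATAAA nor the common variant ATTAAA. Within the last 40 bases, on the strand of the gene, AATAAA was found in 24 of the 41 genes (58.5%), against 57.7% of all 19540 genes. ATTAAA without AATAAA was found in 4 (9.76%, against 13.3% of all genes), and 13 held neither hexamer (31.7%, against 29.0%). The repair genes thus held these letters about as often as genes at large. The window ends at the annotated end of the last 3′ UTR, and other poly(A) sites of the same genes were not searched. For EXO1, XRCC2, TOPBP1 and BLM the gene runs on past this end.

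In the control libraries the repair genes gave a larger part of their reads from introns than did genes in general. The intron share, defined as intron reads divided by the sum of intron and 3′ UTR reads and here pooled over the 9 control libraries, had a median of 45.8% over the 41 genes and of 29.8% over the 13282 genes with at least 100 such reads. It exceeded 50% in 18 of the 41 (43.9%), against 35.4% of all those genes. The repair genes also had longer introns, with a median of 65114 intron bases against 33436.5. Per kilobase of intron, their median over the 9 controls was 10.9 reads, against 7.57 reads for all those genes. Across the 41 genes the intron share went with intron length (Pearson r = 0.59 with log10 intron bases, Spearman rho = 0.61, n = 41). This is a description over genes measured in the same libraries, not over independent replicates.

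**Figure D1:**
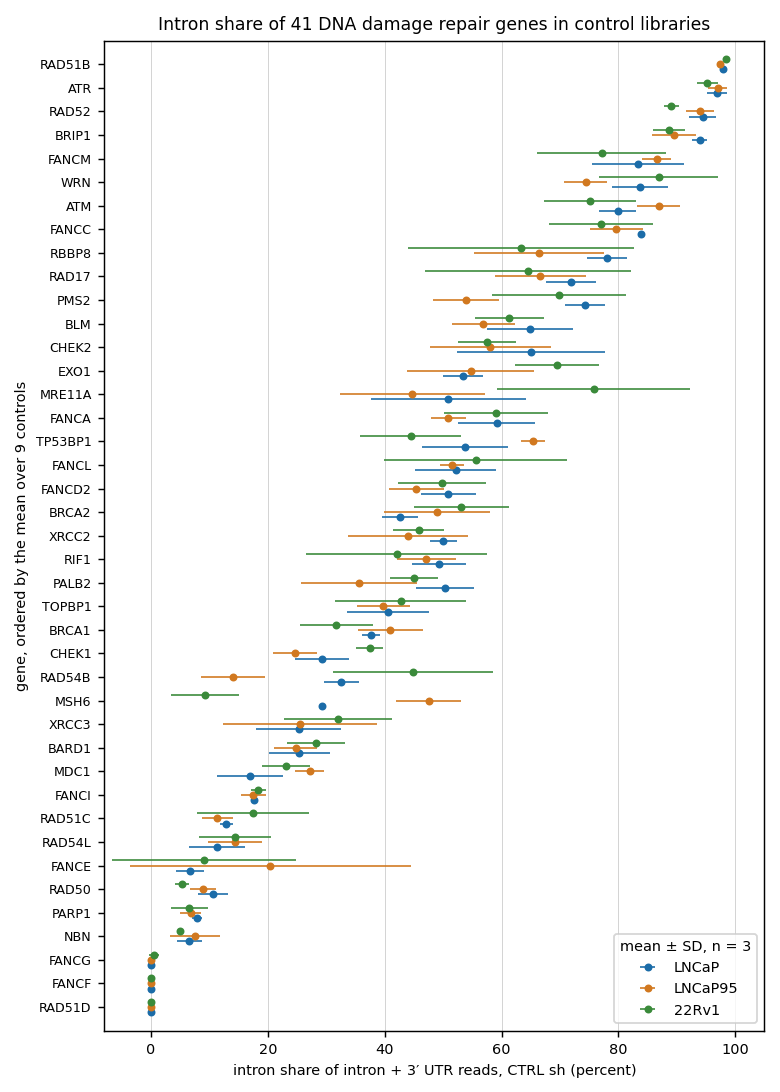
Intron share (percent of intron plus 3′ UTR reads) of each of the 41 repair genes in the control libraries, with 1 point per line (mean ± SD, n = 3 libraries) and genes ordered by their mean over the 9 controls. RAD51B and ATR lie above 95% in all 3 lines, RAD51D and FANCF at 0%, and MSH6 and RAD54B show wide gaps between lines.

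The genes at the top of this order gave almost no 3′ UTR reads. RAD51B, a recombination paralog with 902737 intron bases, had an intron share of 97.9 ± 0.51% (mean ± SD, n = 9 controls), with line means of 97.9%, 97.5% and 98.4% in LNCaP, LNCaP95 and 22Rv1. ATR, the kinase that responds to stalled replication forks, followed at 96.3 ± 1.74%. Its introns, 116278 bases long, held 40.1 reads per kilobase over the 9 controls, the highest density of the 41 genes. RAD51B introns held 7.60, near the median of 7.57 over all genes with at least 100 reads. The next in order were RAD52, a mediator of strand annealing, at 92.5 ± 3.13%, the helicase BRIP1 at 90.7 ± 3.44% and FANCM, the DNA translocase of the Fanconi complex, at 82.3 ± 8.03%. Within this group RAD51B and ATR, and likewise RAD52 and BRIP1, differed by less than about 1 SD of the control libraries. Other genes lie within some of these introns: on the strand counted, the annotation places 3207 exon bases of the noncoding gene ENSG00000250132 inside RAD52 introns and 765 of ENSG00000244327 inside ATR introns, each with its own 3′ end there, so that part of these intron reads may belong to them.

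At the other end stood genes read almost wholly from the 3′ UTR. PARP1, which marks DNA breaks with poly(ADP-ribose), had an intron share of 7.06 ± 1.98% and NBN, the MRN subunit that recruits ATM, of 6.30 ± 2.66%. FANCG was at 0.163 ± 0.49%. RAD51D and FANCF had no intron read in any control. FANCF has only 37 intron bases, whereas RAD51D has 17038 intron bases, over which a count of 0 was found beside 337 3′ UTR reads in the 9 controls. RAD51D overlaps a readthrough gene, ENSG00000267618. How reads in the overlap were assigned is not known here, and its part in the count of 0 was not tested. The intron share did not follow function: the 5 recombination paralogs ran from 0% (RAD51D) over 13.9% (RAD51C), 27.6% (XRCC3) and 46.6% (XRCC2) to 97.9% (RAD51B). In the same way the MRN subunits stood at 6.30% (NBN), 8.26% (RAD50) and 57.1% (MRE11A), and the BRCA1-PALB2-BRCA2 axis ran from 26.1% (BARD1) to 90.7% (BRIP1). BRCA1, PALB2 and BRCA2 stood at 36.8 ± 5.88%, 43.6 ± 8.77% and 48.2 ± 7.77%, a spread no larger than that between control libraries for neighbours in this order.

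The bounds of the counted regions matter for these shares. In the bounds deposited with the counts, 32 of the 41 3′ UTR regions were made of more than 1 piece, and 15 (36.6%) contained over 50% of the gene's coding bases, against 15.1% of all genes, because a coding exon of one isoform was the 3′ UTR of another. For BRCA1 this was 95.2% of the coding bases, for PALB2 96.3%, for MSH6 87.5% and for RAD50 86.7%. A read that ended in such an exon was counted in the 3′ UTR table, and the coding and 3′ UTR values of these genes are not separate measurements. Per the paper's methods, every 3′ UTR piece was also lengthened at its 3′ end, and introns were what then remained. For BRCA1 the region had 21 pieces and 13211 bases, of which 5455 were coding. A read ending in an intron just past such a piece could thus count as 3′ UTR and lower the intron share. The size of this effect was not tested.

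Between the lines, MSH6 showed the largest difference in the balance of intron and 3′ UTR reads, over the 37 genes that could be tested and the 3 comparisons of lines. In the 3 LNCaP controls its intron share was 28.9%, 29.6% and 29.3%. The LNCaP95 controls gave 48.8%, 41.5% and 52.3%, and the 22Rv1 controls 15.6%, 8.06% and 4.14%, so that no 2 lines overlapped. The shift lay mainly in the introns: MSH6 intron reads were at 41.3, 50.5 and 42.8 CPM in LNCaP, at 96.9, 69.9 and 93.1 CPM in LNCaP95 and at 15.7, 18.0 and 7.35 CPM in 22Rv1, while its 3′ UTR level ran only from 38.7 to 76.4 CPM over the 9 libraries. As a log2 ratio of intron to 3′ UTR reads, LNCaP95 was higher than LNCaP by 1.34 ± 0.30 (SE; edgeR adjusted p = 0.0090), and 22Rv1 differed from LNCaP by -2.14 ± 0.35 (adjusted p = 0.00032) and from LNCaP95 by -3.49 ± 0.34 (adjusted p = 4.7e-07). The LNCaP95 over LNCaP difference lost its call when library sizes were taken over all 4 tables (log2 difference 1.13). Introns of MSH6 also hold the pseudogene NME2P2, with 395 exon bases on the counted strand. In the bounds deposited with the counts, these introns cover 105543 bases. They start at position 47922669 of chromosome 2, far before the first coding base at 48010373. Reads counted as MSH6 intron reads can thus lie well upstream of its coding sequence.

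MSH6 was the only 1 of the 37 repair genes tested whose ratio passed between LNCaP95 and LNCaP, in a comparison where 7.22% of all genes passed. Between 22Rv1 and LNCaP 2 of 37 passed (8.48% of all genes). The other was RAD50, the MRN subunit that tethers broken ends, with intron shares of 7.59%, 11.8% and 12.4% in LNCaP and 6.68%, 4.41% and 4.87% in 22Rv1 (log2 ratio -1.0 ± 0.29, adjusted p = 0.030). Between 22Rv1 and LNCaP95 7 of 37 passed (18.4% of all genes), 5 with a lower ratio in 22Rv1. Beside MSH6 and RAD50 (-0.93 ± 0.29) these were TP53BP1, which holds back end resection, at -1.37 ± 0.31 (adjusted p = 0.0039), ATM at -1.24 ± 0.35 (adjusted p = 0.016) and BRCA1 at -0.73 ± 0.24 (adjusted p = 0.042). TP53BP1 stood at 63.8%, 67.8% and 64.7% in LNCaP95 and at 52.6%, 35.4% and 45.4% in 22Rv1, without overlap. The ratio was higher in 22Rv1 for the helicase WRN (1.19 ± 0.40, adjusted p = 0.041) and for RAD54B, a DNA translocase of homologous recombination (2.18 ± 0.48, adjusted p = 0.0030). RAD54B had the wider gap, with 20.2%, 10.3% and 11.5% in LNCaP95 and 59.6%, 32.5% and 42.4% in 22Rv1. In this last comparison the count of 7 fell to 4 without the second 22Rv1 control or without the first LNCaP95 control. MSH6 and the RAD54B and TP53BP1 differences kept their calls in each of the 14 alternatives tried, while ATM kept its call in 10 of 14, RAD50 in 8 of 14 in either comparison, and BRCA1 and WRN in 5 of 14. RAD54B shares exon sequence with the gene FSBP, of which 3242 exon bases lie in its introns and 3180 in its 3′ UTR region.

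The level of the 3′ UTR reads was itself higher in 22Rv1 than in the other two lines for many repair genes. Against LNCaP, 17 of 41 were higher and 2 lower in 22Rv1, where 47.3% of all genes passed (23.2% higher and 24.1% lower). Against LNCaP95, 24 were higher and 4 lower, where 54.5% of all genes passed (27.5% higher and 26.9% lower). The share of repair genes with a higher level in 22Rv1 thus lay above the background in both comparisons, which share the 22Rv1 controls. Among 69 other DNA repair genes tested, 25 were higher and 8 lower than in LNCaP (median log2 difference 0.38, beside 0.42 for the 41), and 26 were higher and 11 lower than in LNCaP95 (0.36 beside 0.79). BRCA1 gave 309, 223 and 193 CPM in 22Rv1, against 95.5, 83.8 and 94.5 CPM in LNCaP and 56.9, 51.9 and 71.5 CPM in LNCaP95. Its log2 differences were 1.37 ± 0.19 (adjusted p = 1.3e-05) and 2.00 ± 0.19 (adjusted p = 1.5e-07). The helicase partner of BRCA1, BRIP1 (log2 difference from LNCaP 1.99 ± 0.41), the resection factor RBBP8 (1.94 ± 0.42), the ubiquitin ligase subunit FANCL (1.85 ± 0.36) and the adaptor MDC1 (1.43 ± 0.21) were also higher in 22Rv1 than in LNCaP. From LNCaP95 to 22Rv1 the largest differences after BRCA1 were those of FANCG (1.74 ± 0.24), XRCC2 (1.72 ± 0.24), EXO1 (1.69 ± 0.31) and FANCC (1.55 ± 0.27).

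BARD1, the obligate partner of BRCA1, went the other way. It gave 156, 132 and 149 CPM in LNCaP, 69.1, 73.1 and 73.4 CPM in LNCaP95 and 44.1, 39.9 and 34.1 CPM in 22Rv1. The difference between 22Rv1 and LNCaP was -1.93 ± 0.17 (adjusted p = 5.8e-08), so that the partners BRCA1 and BARD1 were ordered in opposite ways in these 2 lines. The nuclease MRE11A was also lower in 22Rv1 than in LNCaP (-1.82 ± 0.42) and than in LNCaP95 (-1.25 ± 0.42), with 0.639, 3.65 and 4.0 CPM in 22Rv1, while its MRN partner RAD50 was higher (0.66 ± 0.14 and 1.31 ± 0.14). The third subunit, NBN, passed between 22Rv1 and LNCaP95 (1.24 ± 0.16). The mismatch repair gene PMS2 was lower in 22Rv1 than in LNCaP95 (-1.15 ± 0.28), though PMS2 has near-identical copies in the genome and its counts are uncertain, as are those of BRCA1, CHEK2 and FANCD2.

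From LNCaP to LNCaP95 fewer repair genes differed. Of the 41, 2 were higher in LNCaP95 and 8 lower, where 39.4% of all genes passed (18.9% higher and 20.5% lower). The lower genes were FANCE (-1.21 ± 0.45), ATM (-1.17 ± 0.30), NBN (-1.07 ± 0.15), BARD1 (-1.05 ± 0.15), FANCG (-0.98 ± 0.24), RAD50 (-0.65 ± 0.14), TP53BP1 (-0.64 ± 0.23) and BRCA1 (-0.63 ± 0.19). The higher genes were PMS2 (1.14 ± 0.27) and RAD54B (0.80 ± 0.25). This split depended on scaling: it became 4 higher and 6 lower with library sizes taken over all 4 tables, and 8 higher and 4 lower when composition factors were also left out. It also rose from 10 calls to 16 without the first 22Rv1 control. Genes of the cell cycle also differed between the lines. Of 20 proliferation markers, 17 were higher in 22Rv1 than in LNCaP, 12 higher and 2 lower in 22Rv1 than in LNCaP95, and 11 higher and 5 lower in LNCaP95 than in LNCaP. Their summed 3′ UTR level was 1254 to 1389 CPM in LNCaP, 1676 to 1777 CPM in LNCaP95 and 2425 to 2806 CPM in 22Rv1, and none was at 0. Their part in the differences between lines was not tested.

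CPSF1 knockdown did not move the repair genes as a group towards intronic ends. Over the 37 genes tested, the median log2 change of the ratio of intron to 3′ UTR reads was -0.01 (LNCaP), 0.06 (LNCaP95) and 0.03 (22Rv1), beside -0.11, -0.17 and -0.02 over all genes tested. The ratio passed in 1 repair gene in LNCaP (3.66% of all genes), in 4 in LNCaP95 (14.0% of all genes) and in none in 22Rv1 (0.422% of all genes; 4 repair genes had an unadjusted p under 0.05). Of these 5 calls, 4 were towards a lower ratio, and in LNCaP95 the intron reads themselves fell in MDC1 only among these genes. RAD51D, FANCF, FANCG and FANCE had a mean of 2 CPM or less in the intron table and were not tested.

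**Figure D2:**
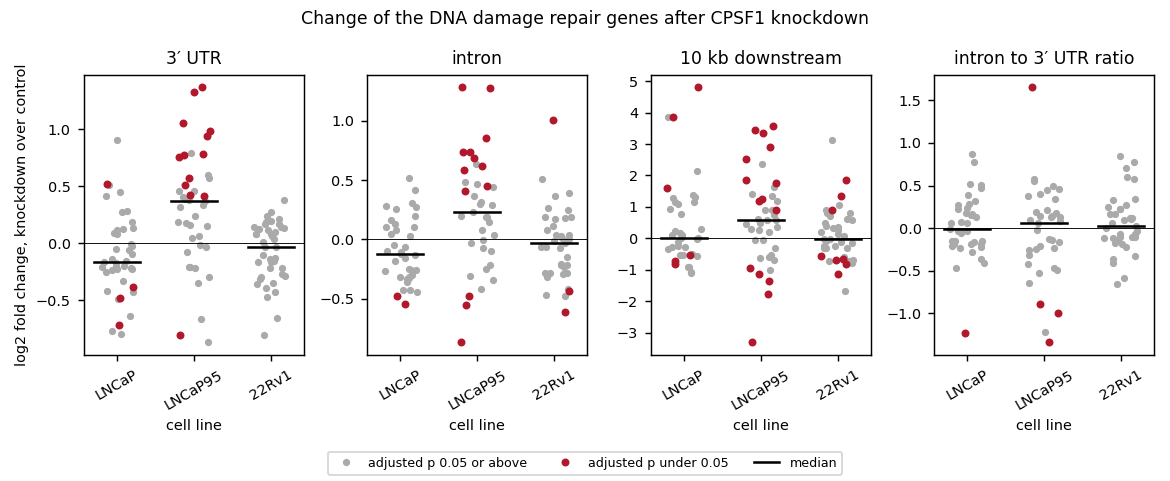
Log2 change after CPSF1 knockdown of each tested repair gene (points) in the 3′ UTR, intron and 10 kb downstream tables and in the ratio of intron to 3′ UTR reads, by line, with bars at the medians and an adjusted p under 0.05 in red. In LNCaP95 the points of the 3′ UTR table are shifted upwards (median 0.37), while those of the ratio lie around 0 in all 3 lines.

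The reads of the 41 genes added together fell in intron share in LNCaP without overlap between the groups, and overlapped in the other two lines. In the LNCaP controls 39.3% to 40.2% of their summed intron and 3′ UTR reads came from introns, and after knockdown 30.4% to 38.1% (means 39.9 ± 0.53% and 34.2 ± 3.28%, n = 3 and 6), so that all knockdown libraries lay below the controls. In LNCaP95 controls held 37.7% to 40.6% and knockdown libraries 34.1% to 46.7%, an overlap. In 22Rv1 the controls were wide apart (35.4 ± 6.88%, n = 3) and enclosed the knockdown libraries at 36.6% to 40.7%. The highest of these controls, at 43.1%, was the shallow first library. The mean differences of -5.70, -1.29 and 3.52 percentage points stood beside -2.61, 1.59 and 3.42 points for the reads of all genes. The LNCaP difference had the same sign as that of all genes and was larger, and the LNCaP95 difference had the opposite sign.

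MDC1, the adaptor that binds phosphorylated histone H2AX at breaks, lost intron reads relative to 3′ UTR reads in LNCaP95. In LNCaP95 its intron share was 29.8%, 26.7% and 25.0% in controls and 9.30% to 15.9% after knockdown (median 12.9%), with no overlap. Its intron reads fell, from 31.1, 23.5 and 26.7 CPM to a median of 15.5 CPM (range 9.10 to 19.1 CPM, log2 change -0.87 ± 0.25, adjusted p = 0.011). The 3′ UTR values, 30.9, 25.6 and 36.5 CPM in controls and 34.6 to 53.3 CPM after knockdown, overlapped. The log2 ratio changed by -1.34 ± 0.30 (adjusted p = 0.0041) and passed in all 16 alternatives. In LNCaP, where the controls stood at 12.8%, 23.4% and 14.8%, the change was -0.23 ± 0.39 and did not pass. In 22Rv1 it was -0.59 ± 0.26 (unadjusted p = 0.031, adjusted p = 0.44). MDC1 has short introns, 11187 bases in all, with 35.0 reads per kilobase over the 9 controls.

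ATR had so few 3′ UTR reads that its ratio rested on small counts. The LNCaP controls held 6, 31 and 26 reads in the 3′ UTR and 519, 674 and 641 in introns. Its intron share was 98.9%, 95.6% and 96.1% in these controls and 87.4% to 95.3% after knockdown (median 89.9%), so that all 6 knockdown libraries were lower. The log2 ratio changed by -1.23 ± 0.33 (adjusted p = 0.035), but by -0.88 (adjusted p = 0.22) without the first LNCaP control. It also missed the threshold without either of the other 2 controls (adjusted p = 0.053 and 0.077), without the first or the second sh1 library (0.070 and 0.066) or without the first sh2 library (0.058), with log2 ratios from -1.52 to -1.18. In LNCaP95 the controls were at 96.1%, 95.9% and 98.9% and the knockdown libraries at 91.9% to 97.7%, with overlap. There the change of -0.99 ± 0.33 (adjusted p = 0.048) became -0.55 (adjusted p = 0.31) without the third control, and passed in 3 of 15 alternatives. In 22Rv1 it was -0.23 ± 0.29, with 7, 17 and 26 3′ UTR reads in the controls. In LNCaP95 the 3′ UTR level of ATR rose (log2 change 1.06 ± 0.34, adjusted p = 0.024), and its intron level did not pass (0.08 ± 0.15).

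**Figure D3:**
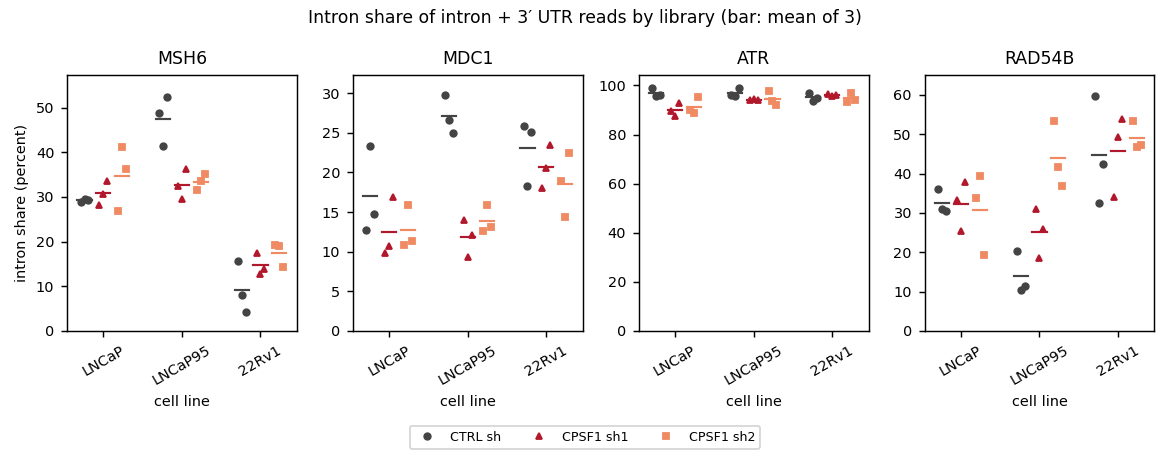
Intron share (percent of intron plus 3′ UTR reads) per library for the genes whose ratio passed after CPSF1 knockdown, by line, with control, sh1 and sh2 libraries as separate points and a bar at the mean of 3. In LNCaP95 the MSH6 and MDC1 controls all lie above the knockdown libraries, and RAD54B is higher with sh2 than with sh1.

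The MSH6 intron shares of the lines lay closer together after knockdown than in the controls. In LNCaP95 its intron share went from 48.8%, 41.5% and 52.3% to between 29.5% and 36.3% (median 33.0%), without overlap, a log2 ratio of -0.89 ± 0.23 (adjusted p = 0.014). This lost its call without the first or the third LNCaP95 control (adjusted p = 0.063 and 0.066) and with sh1 alone (0.091). The change came with a higher 3′ UTR level, from 42.9, 39.2 and 38.7 CPM to a median of 75.5 CPM (62.2 to 96.0 CPM, log2 change 0.95 ± 0.16, adjusted p = 0.00017), while the intron level moved by 0.04 ± 0.16. In 22Rv1 the intron level rose, from 15.7, 18.0 and 7.35 CPM to a median of 26.7 CPM (18.9 to 32.1 CPM, log2 change 1.01 ± 0.27, adjusted p = 0.029). There the intron share of 15.6%, 8.06% and 4.14% in controls and 12.8% to 19.2% after knockdown overlapped, and the ratio change of 0.85 ± 0.31 did not pass (adjusted p = 0.32). The LNCaP change of 0.52 ± 0.23 did not pass either (adjusted p = 0.24). The knockdown libraries had medians of 32.1% (LNCaP), 33.0% (LNCaP95) and 15.9% (22Rv1).

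Whether these responses differed was tested in a fit of all 27 libraries. The MSH6 ratio response in LNCaP95 differed from that in LNCaP by -1.34 ± 0.33 (log2, adjusted p = 0.036), and the 22Rv1 response differed from that in LNCaP95 by 1.72 ± 0.37 (adjusted p = 0.0095). MSH6 was the only repair gene of 37 to pass in either comparison, where 0.867% and 1.92% of all genes passed. No repair gene passed between 22Rv1 and LNCaP, where 0.0964% of all genes did so and 1 repair gene, ATR, had an unadjusted p under 0.05. The comparison with 22Rv1 lost its call without the third 22Rv1 control (1.32, adjusted p = 0.077). The comparison of LNCaP95 with LNCaP lost its call without any single control of LNCaP, without the first or the third control of LNCaP95 and without the first LNCaP95 sh2 library, with log2 values of -1.38 to -1.23 and adjusted p of 0.060 to 0.099. It was also lost under either summed library size (-1.09, adjusted p = 0.25 and 0.26) and with no filter beyond 1 read (adjusted p = 0.060).

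RAD54B was the exception in direction. Its intron share in LNCaP95 was 20.2%, 10.3% and 11.5% in controls, 31.0%, 18.6% and 25.8% with sh1 and 53.4%, 41.8% and 36.8% with sh2, so that the sh1 libraries overlapped the controls and the sh2 libraries did not. The log2 ratio rose by 1.65 ± 0.45 (adjusted p = 0.016) with both hairpins together, and its change was 1.13 (adjusted p = 0.23) with sh1 alone. Without the second or the third control it missed the threshold (1.49 and 1.46, adjusted p = 0.061 and 0.074). Its intron reads rose from 8.44, 5.33 and 5.42 CPM to a median of 16.0 CPM (10.8 to 21.5 CPM, log2 change 1.28 ± 0.34, adjusted p = 0.0054). In LNCaP and 22Rv1 the ratio moved by 0.22 ± 0.44 and -0.07 ± 0.35. Among the genes with the highest intron share RAD51B, RAD52, BRIP1 and FANCM passed in no line.

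In the 3′ UTR table the share of repair genes that passed in LNCaP95 was near that of all genes, and most of the calls were upwards. There 13 of 41 passed, 12 of them higher and 1 lower, where 30.4% of all genes passed with 14.8% higher and 15.6% lower. The median log2 change over the 41 genes was 0.37 beside 0.00 over all genes. In LNCaP 4 of 41 passed (18.3% of all genes), 1 higher and 3 lower, with a median of -0.16. In 22Rv1 none passed (1.47% of all genes; 3 had an unadjusted p under 0.05, and DESeq2 also called 0), with a median of -0.03. The number in LNCaP95 was 3 with sh1 alone and 13 with sh2 alone. It was 7 without the first control, 8 without the third sh2 library and 7 when each library was sized by its reads in all 4 tables, with 3′ UTR composition factors.

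Of the 4 end resection factors and helicases, 3 rose in LNCaP95, where 14.8% of all genes were higher. EXO1, the exonuclease that extends resection, rose from 6.37, 6.99 and 7.21 CPM to a median of 17.8 CPM (12.6 to 21.9 CPM, log2 change 1.37 ± 0.23, adjusted p = 0.00019). RBBP8, which starts resection with the MRN complex, rose from 3.75, 11.4 and 11.5 CPM to a median of 20.9 CPM (15.2 to 31.4 CPM, 1.33 ± 0.30, adjusted p = 0.0025). The helicase BLM rose from 9.55, 13.1 and 10.3 CPM to a median of 16.3 CPM (14.0 to 17.9 CPM, 0.57 ± 0.20, adjusted p = 0.040). For each of the 3 all knockdown libraries lay above the controls. The BLM call held in 6 of 17 alternatives and was lost in 5 of the 9 fits that left out a library, whereas those of EXO1 and RBBP8 held in all 9.

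Of the 9 signalling genes ATR and ATM rose in LNCaP95, where 14.8% of all genes were higher. ATM, the kinase activated by double-strand breaks, had 4.68, 7.42 and 8.04 CPM in the LNCaP95 controls and 8.36 to 15.6 CPM after knockdown (median 10.2 CPM, log2 change 0.79 ± 0.28, adjusted p = 0.039). In LNCaP, where its controls were at 18.4, 13.7 and 12.4 CPM, the change was -0.02 ± 0.24, and in 22Rv1 -0.39 ± 0.27. Of the BRCA1-PALB2-BRCA2 axis, BRCA2 rose in LNCaP95 (12.9, 9.96 and 16.7 CPM to a median of 21.2 CPM, 0.78 ± 0.27, adjusted p = 0.033), with overlap between the groups. BRCA1 did not pass in LNCaP95 (0.40 ± 0.16, adjusted p = 0.061) or in 22Rv1 (-0.35 ± 0.15, adjusted p = 0.32), and PALB2, the link between BRCA1 and BRCA2, gave -0.16 ± 0.25, -0.08 ± 0.23 and 0.08 ± 0.23 in the 3 lines. FANCL, 1 of the 7 core complex genes, rose in LNCaP95 (6.18, 6.36 and 3.71 CPM to a median of 10.4 CPM, 0.98 ± 0.28, adjusted p = 0.013). FANCD2, the target that the complex ubiquitinates, gave 0.09 ± 0.20, 0.24 ± 0.17 and -0.03 ± 0.13 in LNCaP, LNCaP95 and 22Rv1. The other genes that rose in LNCaP95 were RAD51D (0.76 ± 0.28), RAD51C (0.51 ± 0.15), NBN (0.42 ± 0.15) and PARP1, at 236, 217 and 204 CPM in controls and 250 to 345 CPM after knockdown (0.41 ± 0.13, adjusted p = 0.023).

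**Figure D4:**
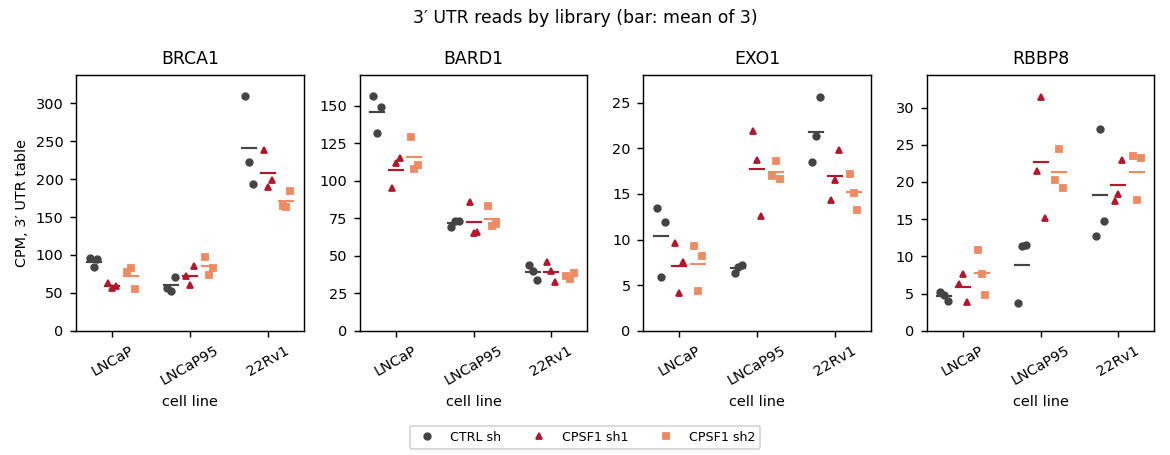
3′ UTR level (CPM) of BRCA1, BARD1, EXO1 and RBBP8 per library, by line, with control, sh1 and sh2 libraries as separate points and a bar at the mean of 3. In LNCaP95 the EXO1 and RBBP8 knockdown libraries all lie above the controls, and in LNCaP the BRCA1 and BARD1 knockdown libraries all lie below them.

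PMS2, which cuts the mismatched strand in mismatch repair, was the gene that fell in LNCaP95, from 20.2, 23.9 and 30.9 CPM to a median of 14.6 CPM (10.3 to 16.4 CPM, log2 change -0.81 ± 0.20, adjusted p = 0.0046). In LNCaP the genes that fell were RAD54L, a motor protein of homologous recombination, and both members of the BRCA1-BARD1 complex. RAD54L went from 50.8, 52.1 and 55.0 CPM to a median of 32.2 CPM (23.6 to 41 CPM, -0.71 ± 0.18, adjusted p = 0.0079). BRCA1 fell from 95.5, 83.8 and 94.5 CPM to a median of 61.1 CPM (55.1 to 83.0 CPM, -0.48 ± 0.15, adjusted p = 0.031). BARD1 fell from 156, 132 and 149 CPM to a median of 111 CPM (95.5 to 129 CPM, -0.39 ± 0.13, adjusted p = 0.039). In all 3 the groups did not overlap. RAD51C rose in LNCaP (0.52 ± 0.16, adjusted p = 0.026) as it did in LNCaP95, from 74.2, 69.9 and 69.6 CPM to a median of 108 CPM with overlap. The count of 4 fell to 1 or 2 without any single LNCaP control or any single sh1 library, and was 8 with sh1 alone and 1 with sh2 alone.

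In introns most of the calls were in LNCaP95, as for genes at large: 13 of 37 genes, 10 higher and 3 lower, where 23.9% of all genes passed with 12.9% higher and 11.0% lower. The median log2 change was 0.23. In LNCaP 2 genes fell (14.4% of all genes; median -0.13), and in 22Rv1 1 rose and 2 fell (4.35% of all genes; median -0.03). EXO1 introns rose in LNCaP95 from 14.2, 16.5 and 32.5 CPM to a median of 54.3 CPM (36.1 to 60.9 CPM, log2 change 1.28 ± 0.24, adjusted p = 0.00020). Those of RBBP8 rose by 0.86 ± 0.18 (adjusted p = 0.00067) and those of BRIP1 by 0.74 ± 0.17 (adjusted p = 0.0015), from 69.8, 99.2 and 62.8 CPM to a median of 126 CPM. FANCL (0.73 ± 0.26), BLM (0.68 ± 0.20), FANCA (0.62 ± 0.21), RIF1 (0.59 ± 0.16), FANCC (0.45 ± 0.16) and RAD52 (0.41 ± 0.15) rose as well. EXO1, RBBP8, BLM and FANCL rose in both the intron and the 3′ UTR table, and in none of them did the ratio pass: for EXO1 it moved by -0.02 ± 0.28.

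The 3 genes whose introns fell in LNCaP95 were MDC1, the clamp loader RAD17 (82.2, 62.4 and 80.0 CPM to a median of 51.5 CPM, -0.55 ± 0.16, adjusted p = 0.014) and TP53BP1 (63.5, 66.1 and 67.8 CPM to a median of 46.1 CPM, -0.48 ± 0.17, adjusted p = 0.038). In all 3 the groups did not overlap. The calls held in 16, 13 and 6 of 17 alternatives. These 3 belong to the 9 signalling genes, of which 1, RIF1, rose. In LNCaP the introns of BRCA1 fell from 108, 117 and 120 CPM to a median of 71.9 CPM (57.3 to 98.2 CPM, -0.54 ± 0.15, adjusted p = 0.013). Its 3′ UTR level fell by a like amount, and its ratio moved by -0.06 ± 0.20. RAD51B introns fell from 349, 462 and 446 CPM to a median of 287 CPM (240 to 367 CPM, -0.47 ± 0.13, adjusted p = 0.013). In 22Rv1 the introns of BRCA2 fell from 69.1, 52.4 and 47.2 CPM to a median of 37.2 CPM (32.1 to 43.8 CPM, -0.61 ± 0.16, adjusted p = 0.029) and those of WRN by 0.44 on the log2 scale (SE 0.12, adjusted p = 0.041), beside the rise of MSH6. The LNCaP95 count of 13 was 5 with sh1 alone, 5 without the first control and 8 without the third. The LNCaP count of 2 was 0 without the second or the third control and 4 without the first. It was 10, all lower, when library sizes were summed over the 4 tables with 3′ UTR factors, a scaling that moved the median of all genes to -0.27. The 22Rv1 count of 3 was 0 without the first sh2 library, 1 without the third sh2 library or the second or the third control, and 0 with sh1 alone. Its split of 1 higher and 2 lower became 1 and 0, or 3 and 0, with the summed library sizes, which moved the median of all genes to 0.19 and 0.27.

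Reads in coding sequence were fewer, and 27 or 28 genes could be tested. BARD1 fell in LNCaP, from 328, 340 and 339 CPM to a median of 222 CPM (log2 change -0.53 ± 0.14, adjusted p = 0.015), the only 1 of 27 (6.86% of all genes), and this call was lost without any single LNCaP control. In LNCaP95 4 of 28 rose (12.7% of all genes): MSH6 (1.04 ± 0.21, adjusted p = 0.0014), RBBP8 (0.75 ± 0.16), BRCA2 (0.62 ± 0.17) and PARP1 (0.62 ± 0.20), all of which also rose in the 3′ UTR table. The count was 2 without the first or the third control. In 22Rv1 none passed (0.993% of all genes; 1 had an unadjusted p under 0.05), and DESeq2 called 1.

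Downstream of the genes, in the 10 kb after the annotated end, RAD50 rose in all 3 lines. Its controls held 148, 144 and 144 CPM in LNCaP, 27.6, 169 and 28.3 CPM in LNCaP95 and 151, 215 and 222 CPM in 22Rv1. After knockdown the medians were 399 CPM (330 to 568), 216 CPM (186 to 318) and 540 CPM (406 to 580), all above the controls of the same line. The log2 changes were 1.59 ± 0.24 (adjusted p = 1.5e-08), 1.75 ± 0.33 (1.4e-05) and 1.36 ± 0.21 (2.4e-07). The readthrough gene ENSG00000283782 has 1159 exon bases and its own 3′ end in this window, and its part in the rise was not tested. The 3′ UTR level of RAD50 itself did not pass in any line.

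**Figure D5:**
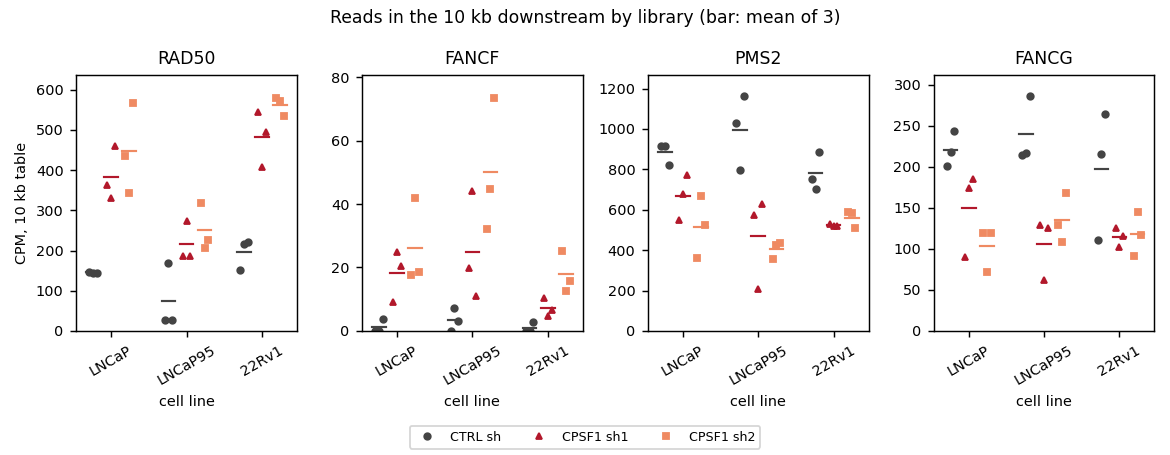
Reads in the 10 kb downstream of RAD50, FANCF, PMS2 and FANCG (CPM within the downstream table) per library, by line, with control, sh1 and sh2 libraries as separate points and a bar at the mean of 3. All RAD50 knockdown libraries lie above the controls of their line.

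Counts of the other downstream windows were small and depended on scaling. In LNCaP 3 of 37 genes were higher and 3 lower (14.6% of all genes), in LNCaP95 10 of 40 were higher and 5 lower (27.9% of all genes, 18.4% higher and 9.46% lower), and in 22Rv1 3 of 40 were higher and 5 lower (10.0% of all genes). The median log2 change of all genes was 0.15, 0.26 and 0.21 in this order of lines. When library sizes were taken over the 4 tables with 3′ UTR factors, it became 0.61, 1.08 and 0.73. The splits then became 3 and 0, 20 and 0, and 8 and 0. Without composition factors the splits were 4 and 0, 24 and 0, and 8 and 0. No lower call therefore survived, and the genes called lower here moved less than others rather than being shown to fall. They included FANCG (-0.72 ± 0.25, -0.94 ± 0.27 and -0.83 ± 0.24) and PMS2 (-0.53 ± 0.19, -1.14 ± 0.24 and -0.57 ± 0.18) in all 3 lines, and the FANCG window overlaps 797 exon bases of VCP. ATR (-1.37 ± 0.33) and RAD17 (-1.78 ± 0.38) were lower in LNCaP95, RAD51D in LNCaP (-0.82 ± 0.26) and 22Rv1 (-0.67 ± 0.21), and BRCA2 (-1.15 ± 0.32) and XRCC2 (-0.66 ± 0.19) in 22Rv1. RAD51B was also called lower in LNCaP95, from 0, 3 and 2 reads in controls to 1 read in all 6 knockdown libraries, and kept this call in 3 of 14 alternatives.

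Among the genes with higher downstream reads, FANCL rose in LNCaP95 (46.1, 73.6 and 81.8 CPM to a median of 148 CPM, 1.24 ± 0.31) and in 22Rv1 (30.1, 129 and 114 CPM to a median of 175 CPM, 0.90 ± 0.27). Several rested on controls near 0, and are given as reads. FANCF, a gene almost without introns, had 0, 0 and 1 downstream reads in the LNCaP controls and 3 to 11 after knockdown. It had 0, 2 and 1 reads in LNCaP95 controls and 6 to 40 after knockdown. MSH6 had 2, 1 and 0 reads in LNCaP95 controls and 19, 46 and 4 with sh1 and 20, 23 and 23 with sh2. CHEK1, the effector kinase of ATR, had 0, 0 and 4 reads there and 9 to 26 after knockdown, BLM 0, 1 and 0 reads and 2 to 13, and RAD51C 0, 1 and 4 reads and 11 to 28. RBBP8 had no downstream read in the LNCaP controls and 3, 4 and 5 with sh1 and 7, 1 and 2 with sh2. FANCC rose in 22Rv1, from 1, 6 and 2 reads to 17 to 37 reads (1.85 ± 0.53, adjusted p = 0.011). ATM (0.92 ± 0.35), TOPBP1 (1.2 ± 0.46) and FANCD2, the last with 5 control reads in all, were called higher in LNCaP95 as well. The downstream count in LNCaP was 2 without the second control, 3 without the third control and 3 without the first sh2 library. The LNCaP95 count was 9 and the 22Rv1 count 4 without the third control of the line.

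The 76 other DNA repair genes, a list that holds none of the 41, served as the rest of the pathway. Their 3′ UTR level could be tested in 68 genes in LNCaP, where knockdown raised 5 and lowered 4. LNCaP95 gave 11 that rose and 6 that fell among 68, and 22Rv1 gave none among 70 (edgeR; 13 had an unadjusted p under 0.05). Their median in LNCaP95 was 0.08, beside 0.37 for the 41. The ratio of intron to 3′ UTR reads passed in 2 of 63 genes in LNCaP, both upwards. In LNCaP95 it rose in 3 of 63 and fell in 4, and in 22Rv1 it rose in 1 of 65. The 3 genes of the CDK12 kinase list (CDK12, CDK13 and their cyclin CCNK) passed in no line in the 3′ UTR table, in edgeR and with none at an unadjusted p under 0.05, and 1 was lower in LNCaP95 introns. The proliferation markers gave 7 higher and 6 lower of 20 in LNCaP95 after knockdown, 1 and 1 in LNCaP and none in 22Rv1, and their summed level was 1676 to 1777 CPM in the LNCaP95 controls and 1559 to 1785 CPM after knockdown. The part of cell cycle differences in the rise of EXO1, RBBP8 and BLM was not tested.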

How the data were processed

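The 4 deposited tables held raw counts of poly(A)-ClickSeq reads per gene in 3′ UTRs (extended by 300 bases), introns, coding sequence and the 10 kb downstream. Per the paper's methods and the submitters' processing notes, the authors trimmed poly(A) stretches, aligned reads to GRCh37 (hg19) with HISAT2 2.1.0 and counted the 3′-most base on the same strand with Subread (version 2.0.3 in the processing notes, while the paper's methods name another version). A read could fall in more than 1 region, and the shares printed rest on counts without molecular identifiers. All 27 libraries were used, and 0 columns were left unmatched.

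Here CPM were computed within each table. Genes with a mean above 2 CPM over the libraries compared were tested with edgeR 4.0.16 in R 4.3.3 (TMM factors per table, quasi-likelihood F test, 2-sided, Benjamini-Hochberg over all genes of the table), and a gene is said to have passed, risen or fallen at an adjusted p under 0.05. Knockdown was the 6 libraries of both hairpins against 3 controls. The ratio was tested by fitting intron and 3′ UTR counts together with library, region and region by group terms, and responses were compared over all 27 libraries. Scripts were tested on simulated data. Alternatives were DESeq2 1.42.0, each hairpin alone, 2 filters, 2 library sizes, a replicate block and leaving out each library. The genes named throughout were BRCA1, BRCA2, PALB2, ATM, ATR, FANCD2, RAD51B, PARP1 and MSH6, those with a called ratio, the 5 highest and 5 lowest intron shares and the 5 largest called changes each way per table. Region bounds were those deposited with the counts. Neighbouring genes were taken from a reference annotation on hg19 that is newer than the one the authors used (Ensembl GRCh37 release 87), and may differ from theirs. Members and lists were chosen with earlier results of these data known. The labels call the replicates biological and do not name separate cultures or days, so p-values measure the spread between these libraries. Replicates of a group correlated at 0.935 to 0.990 and differed by more than sampling noise.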

Additional observations from a re-analysis of the deposited data

Results flagged for a closer look

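The response of the MSH6 ratio of intron to 3′ UTR reads to CPSF1 knockdown differed between lines by a test of the difference itself. The log2 response in LNCaP95 minus that in LNCaP was -1.34 ± 0.33 (SE; edgeR over 27 libraries, adjusted p = 0.036), and that in 22Rv1 minus that in LNCaP95 was 1.72 ± 0.37 (adjusted p = 0.0095). Within each line the log2 change was -0.89 ± 0.23 in LNCaP95, 0.52 ± 0.23 in LNCaP and 0.85 ± 0.31 in 22Rv1, and only the first of these 3 passed. Both differences rest on the same LNCaP95 libraries. The first kept its call in 23 of 32 alternatives (highest adjusted p 0.26, with summed library sizes), and the second in 31 of 32. Groups of 3 libraries were too small to be screened for single outlying values.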

How the results depend on the processing

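Numbers of repair genes that passed are given here as the count under each alternative followed by the main count. With sh1 alone, the 3′ UTR counts were 8 for 4 in LNCaP and 3 for 13 in LNCaP95, the intron counts 5 for 13 in LNCaP95 and 0 for 3 in 22Rv1, the coding count 2 for 4 in LNCaP95, the downstream counts 3 for 6 in LNCaP and 3 for 8 in 22Rv1, and the ratio count 1 for 4 in LNCaP95. With sh2 alone, they were 1 for 4 in the 3′ UTR, 0 for 2 in introns, 0 for 1 in coding sequence and 0 for 1 in the ratio, all in LNCaP. When each library was sized by its reads in all 4 tables, with 3′ UTR TMM factors, LNCaP95 gave 7 for 13 in the 3′ UTR, 6 for 13 in introns and 2 for 4 in coding sequence, LNCaP gave 10 for 2 in introns and 3 for 6 downstream, and 22Rv1 gave 1 for 3 in introns. Without TMM factors, introns gave 7 for 2 in LNCaP and 7 for 13 in LNCaP95, and the downstream count was 24 for 15 in LNCaP95. The split in the 3′ UTR in LNCaP became 2 higher and 1 lower. Under either summed size, the ratio counts between controls were 0 for 1 (LNCaP95 over LNCaP), 1 for 2 (22Rv1 over LNCaP) and 3 for 7 (22Rv1 over LNCaP95), and the response count of LNCaP95 minus LNCaP was 0 for 1. These sizes moved the median log2 ratio of all genes to -0.42 in LNCaP, -0.17 in LNCaP95 and 0.28 in 22Rv1. DESeq2 gave 1 for 0 in coding sequence in 22Rv1. A filter of above 2 CPM in every library gave 0 for 1 in the LNCaP ratio and 2 for 1 in the control ratio of LNCaP95 over LNCaP. With no filter beyond 1 read the response count of LNCaP95 minus LNCaP was 0 for 1. Apart from the construction of fewer libraries or genes, the cause was not tested.

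Leaving out 1 library at a time gave, in the order LNCaP, LNCaP95 and 22Rv1, ranges of 1 to 5, 7 to 13 and 0 to 0 for the 3′ UTR, 0 to 4, 5 to 13 and 0 to 3 for introns, 0 to 1, 2 to 5 and 0 to 0 for coding sequence, 2 to 7, 9 to 15 and 4 to 8 downstream, and 0 to 1, 1 to 4 and 0 to 0 for the ratio. For LNCaP95 over LNCaP, 22Rv1 over LNCaP and 22Rv1 over LNCaP95 they were 1 to 2, 1 to 3 and 4 to 7 for the control ratio, 7 to 16, 16 to 20 and 24 to 28 for the control 3′ UTR, and 0 to 1, 0 to 0 and 0 to 2 for the responses. The summed intron share moved by -6.48 to -4.94, -3.03 to -0.51 and 0.82 to 7.39 points. The LNCaP95 share, whose main change was -1.29 points, changed sign to 0.52 with the median of the gene shares and to 0.39 with sh2 alone, within 1 SD of the replicates. The directions of 3 single results turned, all downstream without TMM factors and none called there: PMS2 in LNCaP (0.062) and 22Rv1 (0.00197) and FANCG in LNCaP95 (0.0886).

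The labels do not say whether libraries of the same replicate number belong together. Over 27 same-numbered pairs the correlation of deviations ran from -0.33 to 0.51, and 10 were above 0.1. With groups of 3 libraries such correlations cannot exclude a shared day or batch. With a replicate block the counts for LNCaP, LNCaP95 and 22Rv1 were 3, 13 and 0 in the 3′ UTR, 2, 13 and 2 in introns, 1, 3 and 0 in coding sequence, 5, 13 and 8 downstream and 1, 4 and 0 for the ratio. Small 3′ UTR counts, as those of ATR, limit the ratio.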
